A study of Arabidopsis thaliana with 6 samples.

Results

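GLK1 (AT2G20570), GLK2 (AT5G44190), GNC (AT5G56860) and CGA1 (AT4G26150) are nuclear genes for transcription factors that promote chloroplast development in Arabidopsis thaliana. They were picked by locus identifier from a deposited table of gene levels, and are 4 of its 33557 genes. The table compares wild-type seedlings with the phyA-1 mutant, both of the accession Landsberg erecta (Ler), after 4 days in darkness and then 3 hours of far-red light. Each genotype had 3 libraries, which the submitters call biological replicates. phyA-1 is a mutant allele of PHYA, the gene of phytochrome A, and both groups share the Ler background and the same dark and far-red treatment. The labels give the tissue as seedling, so organs were not measured apart. Fewer cells expressing a gene and less RNA per cell therefore cannot be told apart. No group kept in darkness was analysed here, so differences already present before the light cannot be told apart from a response to it.

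Each level is the authors' FPKM (fragments per kilobase of transcript, scaled to the mapped fragments), 1 value per genotype that pools its libraries. No value below carries an SD, and the depth per library is unknown. Ratios are phyA-1 over wild type, as log2 of FPKM + 1, a scale that understates changes of low genes. A gene was called when the q-value of the authors' deposited table was 0.05 or below, and rose and fell are used of called genes only.

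GLK1 and GLK2 (GOLDEN2-LIKE) belong to the GARP family of MYB-related factors and act largely redundantly. They switch on genes of chlorophyll synthesis and of the light-harvesting antenna. GNC (GATA21) and CGA1 (GATA22, also GNL) are a pair of GATA zinc finger factors of the B class, induced by light, nitrate and cytokinin, that raise chlorophyll content and chloroplast number. PIF proteins, which light removes through the phytochromes, are known repressors of the GATA pair and of GLK1 in darkness.

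Coding sequences from RefSeq (assembly TAIR10.1) show how close the members of each pair are. This bears on whether short reads could be credited to the wrong copy. GLK1 (chromosome 2, plus strand) and GLK2 (chromosome 5, plus strand) encode proteins of 436 and 386 residues that are identical at 211 of 362 aligned positions (58.3%). Their longest run of identical residues has 28 residues. It overlaps the DNA-binding domain and holds the residues SHLQ, a hallmark of GARP factors, starting at residue 215 of GLK1 and 193 of GLK2. The 84 bases that encode it differ at 12 positions, given in capitals.

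GLK1: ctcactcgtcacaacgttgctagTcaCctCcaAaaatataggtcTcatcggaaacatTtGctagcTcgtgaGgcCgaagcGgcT

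GLK2: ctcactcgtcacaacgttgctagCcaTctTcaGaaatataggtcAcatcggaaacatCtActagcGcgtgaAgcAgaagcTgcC

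GNC (chromosome 5, minus strand) and CGA1 (chromosome 4, plus strand) encode proteins of 398 and 352 residues with 213 of 338 aligned positions identical (63.0%). Their longest identical run has 39 residues and starts with the GATA zinc finger, whose 26 residues are the same in both. Both proteins also carry the residues LLM that name their subgroup, with the first L at residue 12 from the end. The 117 bases of the identical run differ at 13 positions, again in capitals, and the finger is encoded by the first 78 bases.

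GNC: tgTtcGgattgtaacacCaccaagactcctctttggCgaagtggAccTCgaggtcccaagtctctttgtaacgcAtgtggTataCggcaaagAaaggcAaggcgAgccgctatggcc

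CGA1: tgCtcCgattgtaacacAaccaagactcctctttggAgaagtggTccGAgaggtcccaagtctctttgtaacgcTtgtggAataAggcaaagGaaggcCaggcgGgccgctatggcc

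Over whole transcripts, the longest stretch of identical bases was 24 between GLK1 and GLK2 and 25 between GNC and CGA1. None of the 4 genes shares its locus in the table with another gene, and none overlaps another protein-coding gene in TAIR10.1.

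All 4 genes had lower levels in phyA-1 than in wild type and all 4 were called, by the authors' deposited table, where 8.54% of the 22892 tested genes were called lower. The sizes differed widely. CGA1 kept 8.65% of its wild-type level, GLK2 25.8%, GLK1 49.9% and GNC 74.0%. Summed over the 4 genes, the level was 91.1 FPKM in wild type and 32.9 in phyA-1. GLK2 alone made up 58.3 and 15.0 FPKM of these sums.

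**Figure D1:**
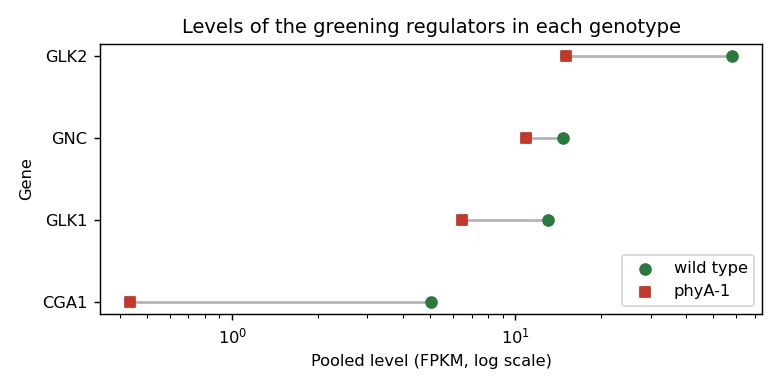
Pooled level of each gene in FPKM on a log axis, with wild type as green circles and phyA-1 as red squares; no error bars can be given for pooled values. All 4 genes lie lower in phyA-1, with the widest gap for CGA1 (5.03 and 0.435 FPKM) and the narrowest for GNC (14.8 and 10.9 FPKM).

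GLK2 (table coordinates on TAIR10, chromosome 5, 17798369 to 17800824) had the highest level of the 4 in both genotypes. It stood at 58.3 FPKM in wild type and 15.0 in phyA-1, 3.88 times higher in wild type, with a log2 ratio of -1.89. The authors' deposited table gives p = 5e-05 and q = 0.00045. Only 0.751% of tested genes had a lower ratio. The wild-type level of GLK2 exceeded that of 88.5% of tested genes, and its phyA-1 level that of 62.9%.

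GLK1 (chromosome 2, 8855358 to 8857756) had 12.99 FPKM in wild type and 6.48 in phyA-1, a log2 ratio of -0.90. Its p and q in the authors' deposited table are 5e-05 and 0.00045. Of the tested genes, 3.43% had a lower ratio. The p of 5e-05 is the smallest in the authors' deposited table and is shared by 1668 tested genes, so it does not rank GLK1, GLK2 and CGA1 against each other.

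CGA1 (chromosome 4, 13253210 to 13254904) was the lowest of the 4 in both genotypes, with 5.03 FPKM in wild type and 0.435 in phyA-1. The wild-type level was 11.6 times the phyA-1 level. On the FPKM + 1 scale its log2 ratio was -2.07, and from the FPKM values alone -3.53. The authors' deposited table gives p = 5e-05 and q = 0.00045. In phyA-1 only 10.7% of tested genes were below CGA1, against 38.3% in wild type. Its place before GLK2 in the order of log2 ratios depends on the pseudocount: with 5 FPKM added, CGA1 stood at -0.88 and GLK2 at -1.66.

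GNC (chromosome 5, 22989265 to 22991467) had 14.8 FPKM in wild type and 10.9 in phyA-1, a log2 ratio of -0.40. This is the smallest difference of the 4 and the least certain. The authors' deposited table gives p = 0.008 and q = 0.0358, and a Benjamini-Hochberg adjustment of the deposited p-values over all tested genes gives 0.0512. With that adjustment 3 of the 4 genes were called lower, against 8.02% of tested genes. With a deposited q-value of 0.01 or below 3 were again called lower, against 6.52% of tested genes. Of the tested genes, 9.77% had a ratio lower than that of GNC.

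**Figure D2:**
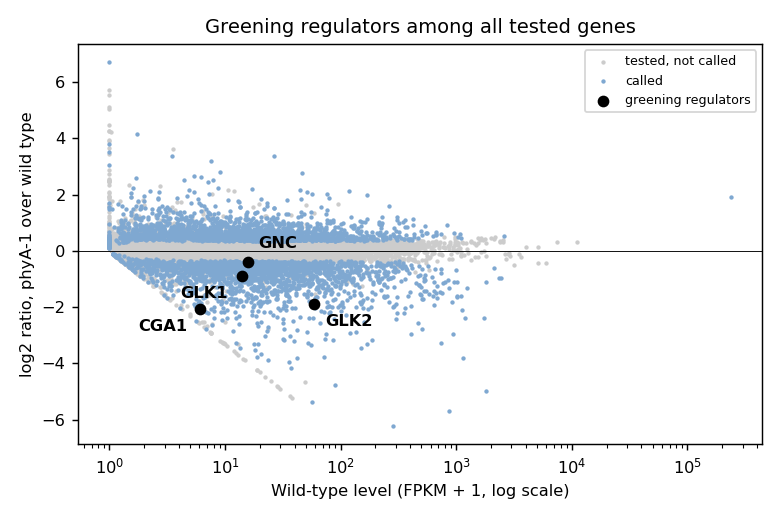
Log2 ratio of phyA-1 over wild type against wild-type FPKM + 1 (log axis) for all 22892 tested genes, called genes in blue and others in grey, with the 4 greening regulators in black. CGA1 (-2.07) and GLK2 (-1.89) lie far below the bulk of genes, GLK1 (-0.90) nearer to it and GNC (-0.40) at its edge.

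In wild type the order of levels was GLK2, GNC, GLK1 and CGA1, and the order was the same in phyA-1. GNC and GLK1 were close in wild type, at 14.8 and 12.99 FPKM, and whether neighbours in this order differ beyond the spread between libraries cannot be said from pooled values. The highest level was 11.6 times the lowest in wild type and 34.5 times in phyA-1.

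The balance within each pair restates these ratios as shares. GLK2 made up 81.8% of the summed GLK1 and GLK2 level in wild type and 69.9% in phyA-1. The GLK sum itself was 71.3 FPKM in wild type and 21.5 in phyA-1. CGA1 made up 25.4% of the GNC and CGA1 sum in wild type and 3.83% in phyA-1, or 27.7% and 10.7% with 1 FPKM added to each level. That sum was 19.8 FPKM in wild type and 11.4 in phyA-1. The log2 ratio of GLK2 was lower than that of GLK1 by a difference of -0.99, and that of CGA1 lower than that of GNC by -1.67. The size of the latter depends on the pseudocount. With 5 FPKM added CGA1 stood at -0.88 and GNC at -0.31, and with 0.1 FPKM added at -3.26 and -0.43. Without values per library neither difference could be tested.

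**Figure D3:**
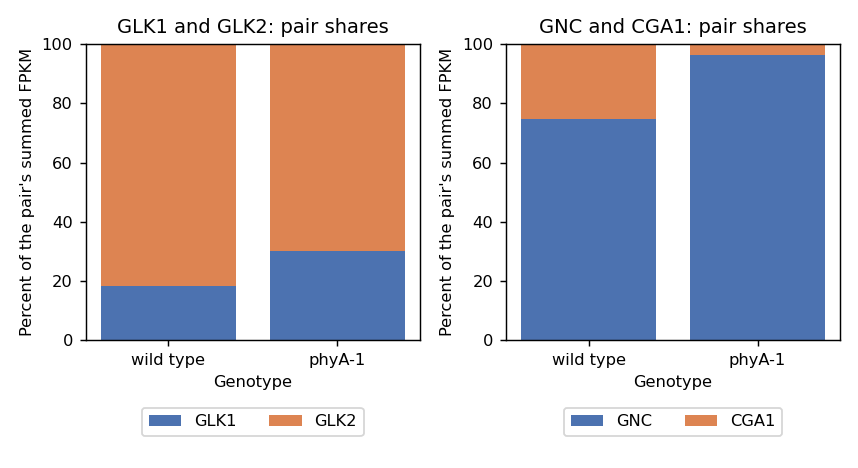
Share of each gene in the summed FPKM of its pair, in percent, for wild type and phyA-1; bars are pooled values without error. The share of GLK1 is 18.2% in wild type and 30.1% in phyA-1, and the share of CGA1 25.4% and 3.83% (27.7% and 10.7% with 1 FPKM added to each level).

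None of the other GATA factor genes was called lower. Of 28 such genes 25 were tested, and 6 rose, none fell and 19 were not called by the authors' deposited table. There, 8.61% of tested genes were called higher and 8.54% lower. With 25 genes, none called lower is not far from the latter share. None of them was called lower with the Benjamini-Hochberg adjustment either, against 8.02% of tested genes. An unadjusted p of 0.05 or below with a lower level was found for 2, GATA7 and GATA23. GATA4 had 74.5 FPKM in phyA-1 against 38.7 in wild type, a log2 ratio of 0.93. GATA2, which promotes photomorphogenesis and is repressed by brassinosteroid signalling, had 69.4 and 37.1 FPKM (0.89). GATA8 (BME3), a positive regulator of seed germination, had 44.9 and 28.1 FPKM (0.66). GATA9 (0.47), GATA12 (0.43) and GATA3 (0.41) followed.

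GATA2, GATA4 and GATA8 have q = 0.00045 in the authors' deposited table, and the others lie between 0.0206 (GATA12) and 0.0467 (GATA3). With the Benjamini-Hochberg adjustment 5 of the family were called higher, against 7.49% of tested genes. The family's median log2 ratio was 0.04, beside 0.05 over all tested genes, and changed sign to -0.021 when wild type was scaled to the median gene. That scaling lowers the ratio of every gene detected in wild type, and the median over all tested genes under it was not computed.

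The 5 B-class relatives nearest to GNC and CGA1 in kind, GATA15, GATA16, GATA17, GATA23 and GATA30 (GATA17-LIKE), were not called in either direction. Of all tested genes 17.2% were called in either direction, and with 5 genes no call is not far from that share. The Benjamini-Hochberg adjustment called none of the 5 relatives either, and GATA23 alone had an unadjusted p of 0.05 or below. GATA23, which acts in lateral root founder cells, had 1.83 FPKM in phyA-1 against 3.06 in wild type, where the authors' deposited table gives q = 0.113. For GATA15 the levels were 11.01 and 8.49 FPKM, with q = 0.166 there.

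**Figure D4:**
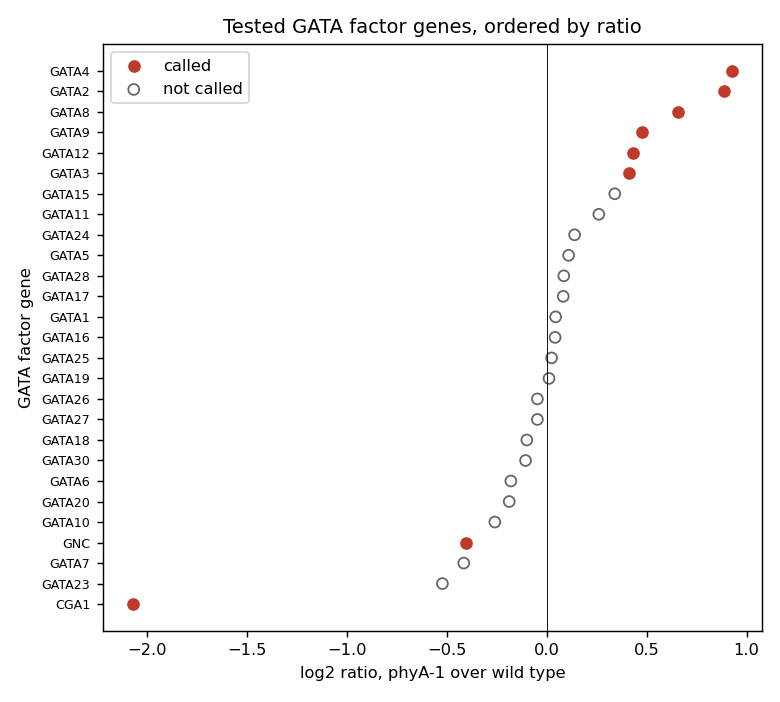
Log2 ratio of phyA-1 over wild type for GNC, CGA1 and the 25 other tested GATA factor genes, ordered by ratio; filled points were called and open points were not. CGA1 (-2.07) stands apart at the low end, GNC (-0.40) lies beside uncalled genes, and the 6 called genes at the high end run from 0.41 to 0.93.

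APRR2, the GARP factor most similar to the GLK proteins and linked to pigmentation in fruit of other species, fell (20.3 FPKM in wild type, 11.5 in phyA-1). Its log2 ratio was -0.77, near that of GLK1, and the authors' deposited table gives q = 0.00045.

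Among 16 genes known to act upstream of the 4 regulators or to modify their products, 7 fell, none rose and 9 were not called, against 8.54% of all tested genes called lower and 8.61% higher. With the Benjamini-Hochberg adjustment 7 were again lower and none higher. At an unadjusted p of 0.05 or below 9 were lower and none higher, PHYB (29.1 FPKM in phyA-1 against 36.4 in wild type) and PIF1 (14.4 and 18.8) being the further ones. The median log2 ratio of the 16 was -0.33, beside 0.05 over all tested genes. The loci of PIF1, ARR1 and BIN2 in the table also cover another gene, so their levels are uncertain. PHYA itself, the mutated gene, is counted among the 16 and among the 7 that fell. It had 16.0 FPKM in phyA-1 against 167 in wild type, so reads were still credited to PHYA in the mutant. The origin of those reads was not examined. HYH (-2.95) and HY5 (-2.21), bZIP factors that promote greening, fell most after it. PIF4 (5.94 FPKM in phyA-1 against 12.9 in wild type) and PIF5 (10.7 and 20.7) fell. PIF3, a PIF known for holding back greening in darkness, had 27.5 and 27.3 FPKM and was not called. COP1, the ubiquitin ligase that removes HY5 in darkness, fell (14.2 and 22.9), and so did GUN1 (55.1 and 80.7), through which damaged plastids repress GLK1.

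Several members that were not called are named here after their values were seen. The type-B response regulators ARR1 (35.9 FPKM in phyA-1 against 32.2 in wild type), ARR10 (15.2 and 17.7) and ARR12 (17.6 and 21.1), which carry the cytokinin signal to CGA1 and GNC, were not called. ARF2 (65.5 and 57.6) and SOC1 (2.40 and 2.42), known repressors of GNC and CGA1, were not called either. BIN2, a kinase of brassinosteroid signalling that acts on the GLK1 protein, had 138 and 136 FPKM.

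Genes of chlorophyll synthesis and of the antenna were mostly lower. Whether the 4 factors act on each of them was not tested. Of 14 chlorophyll synthesis genes 12 fell and 2 rose, against 8.54% of all tested genes called lower and 8.61% higher. The median log2 ratio of the 14 was -0.97, beside 0.05 over all tested genes. GUN4 (26.8 FPKM in phyA-1 against 158 in wild type) and CHLH (56.2 and 302), which work together in magnesium chelation, and HEMA1 (19.3 and 78.4), the first committed step, fell most. PORA (916 and 418) and PORB (669 and 309) rose, although PORC fell (24.9 and 55.7). The POR genes encode the enzyme that reduces protochlorophyllide in the light, and PORA is known to be high in darkness. All 18 antenna genes fell, against the same 8.54% of tested genes called lower. Their ratios ran from -6.22 to -0.95 with a median of -1.97, and the near-identical LHCB1 copies among them are uncertain one by one. GLU1, a ferredoxin-dependent glutamate synthase gene known to depend on GNC and CGA1, fell from 81.4 FPKM to 30.9. Within these lists, 2 chlorophyll genes and 5 antenna genes share a locus with another gene, which makes their levels less certain.

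**Figure D5:**
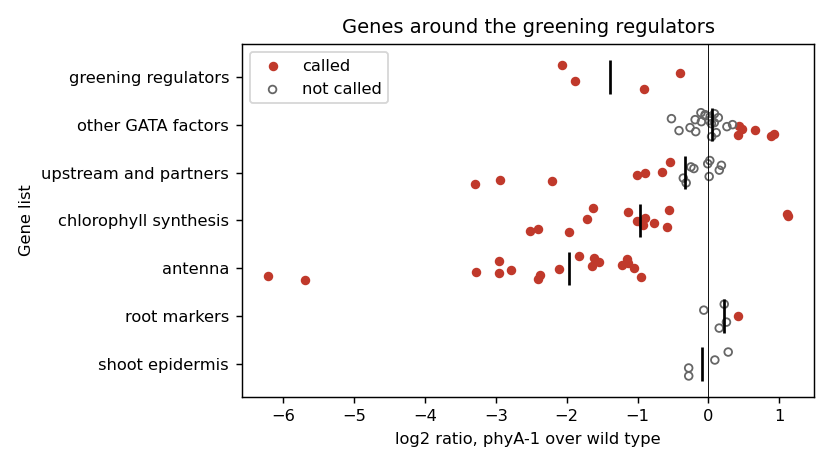
Log2 ratio of phyA-1 over wild type for each tested gene of 7 lists; filled points were called, open points were not, and black bars mark list medians. The medians are -1.40 for the greening regulators, -1.97 for the antenna genes and -0.97 for the chlorophyll synthesis genes (-0.77, -1.95 and -0.93 with 5 FPKM added, so the order depends on the pseudocount), and the other GATA factors centre near 0.

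Of 9 markers of plant parts 1 was called, against 17.2% of all tested genes. Of 5 root markers EXPA18 rose (28.3 FPKM in phyA-1 against 20.9 in wild type) and none fell, also with the Benjamini-Hochberg adjustment or at an unadjusted p of 0.05 or below. The list summed to 5673 FPKM in phyA-1 against 5101 in wild type, nearly all of it PYK10, whose locus is shared, and ratios ran from -0.07 to 0.42. None of 4 shoot epidermis markers was called, with the Benjamini-Hochberg adjustment or without, and 1, ATML1, had an unadjusted p of 0.05 or below. They summed to 1241 and 1351 FPKM. None of the 9 markers was at 0, and the part of tissue makeup in the results was not tested.

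Genes with levels most like those of each regulator were found by distance between log2(FPKM + 1) values over the 2 genotypes. Calls differed between the nearest genes of GLK1 and of GNC, but not between those of GLK2 or of CGA1. AT5G03204, nearest to GLK1, had 6.58 FPKM in phyA-1 against 13.02 in wild type, and the authors' deposited table gives q = 0.686, not a call. The beta-expansin gene EXPB3 (AT4G28250), with 6.38 and 13.06 FPKM, was called. For GLK2 the nearest were ENH1 (AT5G17170; 16.0 and 57.9 FPKM), a rubredoxin family gene, and AT3G23530 (13.7 and 58.6). ENH1 and AT3G23530 were both called, with q = 0.00045 in the authors' deposited table. SEH (AT2G26740), a soluble epoxide hydrolase gene, nearly matched GNC at 10.9 and 14.8 FPKM, where the authors' deposited table gives q = 0.0447. AT4G03150 had 10.7 and 14.8 FPKM, and the authors' deposited table gives q = 0.272, not a call. CGA1 had no such close match: AT3G28270 (0.395 and 4.48 FPKM) and AT4G27560 (0.575 and 4.79) came nearest. These were both called as well, with q = 0.00045 there.

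Of the 8 genes that flank the 4 regulators, 7 were tested and 1 was called, a share near the 17.2% of all tested genes called in either direction. That gene, AT5G56850, lies 1251 bases from GNC and fell (8.26 FPKM in wild type, 2.25 in phyA-1), with a log2 ratio of -1.51, further from 0 than that of GNC. ACHT1, 346 bases from CGA1, had 16.3 FPKM in phyA-1 against 13.99 in wild type, and the authors' deposited table gives q = 0.42.

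The sequences upstream of the 4 genes were searched on both strands because the 4 genes fell together. The G-box CACGTG, bound by HY5 and PIF proteins, occurred once within 1000 bases upstream of the annotated starts of GLK1, GNC and CGA1, and not in that window of GLK2. Of the 27443 such windows of protein-coding genes, 14.8% hold it. Within 250 bases upstream none of the 4 had it, against 6.49% of windows. These windows are of the Columbia reference, and the upstream sequences of Ler plants were not examined. The 80 bases around each G-box follow, 5′ to 3′ on the strand of the gene, from RefSeq on TAIR10.1. Capitals mark the G-box and, in GNC and CGA1, the motif CACATG (the PBE-box, also bound by PIF proteins) in its reverse form.

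GLK1 (chr2:8854374-8854453, plus strand): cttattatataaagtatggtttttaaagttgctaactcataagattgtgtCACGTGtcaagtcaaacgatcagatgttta

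GNC (chr5:22991980-22992059, minus strand): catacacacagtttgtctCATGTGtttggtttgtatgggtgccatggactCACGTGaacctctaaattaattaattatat

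CGA1 (chr4:13252253-13252332, plus strand): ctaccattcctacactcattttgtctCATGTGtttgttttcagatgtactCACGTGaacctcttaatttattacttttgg

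The GNC and CGA1 windows resemble each other on both sides of the G-box. The run actCACGTGaacctct, 16 bases long, is identical in both and is held by 2 of the 27443 windows, those of this pair. The longest run of bases that the 1000-base windows of GNC and CGA1 share, tttgtctcatgtgtttg, has 17 bases, contains the PBE-box and is also held by 2 windows. In GNC 26 bases separate the PBE-box from the G-box, and in CGA1 18. The G-box begins 479 bases before the start of GNC and 781 before that of CGA1, genes whose log2 ratios were -0.40 and -2.07. GLK1 shared 7 identical bases through its G-box with either gene. These runs were singled out after the sequences had been seen.

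Some other motifs were searched. The PBE-box CACATG occurred in the 1000-base windows of 3 of the 4 genes (GLK2, GNC and CGA1), and in 37.7% of all windows. The I-box GATAAG occurred in those of GLK1 and CGA1 and in 40.6% of all. The FHY3 and FAR1 site CACGCGC, the motif CCAATC linked to GLK1 binding and the evening element AAAATATCT of the clock were in none of the 4, and in 2.54%, 36.8% and 7.24% of all windows. A match is a description of letters and shows no binding, and a missing match says only that the letters are not in that window.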

How the data were processed

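RNA levels came from 1 deposited table with 33557 genes, 22892 of them tested by the authors. Per the submitters' processing notes, Bowtie and the build TAIR10 were used. Which tool made the levels and the test is not given in the sources used. The authors deposited FPKM values pooled per genotype, a log2 ratio (wild type over mutant), a test score, p-values and q-values. The table has no header. Column meanings were read from the order and the values. Of tested genes with both levels above 0, 99.97% had a log2 ratio within 0.001 of that of their FPKM. Reads of Ler plants were set against a Columbia reference, alike in both genotypes.

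No test was run here. Calls are the authors' (q of 0.05 or below), and ratios use a pseudocount of 1 FPKM. Benjamini-Hochberg adjustment over all tested genes was an alternative. The 4 members and all lists were chosen with earlier results of these data known. Lists name their called members with the largest ratios and, beyond these, genes chosen after their values were seen, such as uncalled regulators.

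Gene symbols and sequences came from RefSeq, assembly TAIR10.1, with its own annotation (32810 identifiers matched). All printed sequences are therefore of Columbia and may differ from those of Ler. Proteins were translated from the coding sequences and aligned globally with Biopython 1.88 (BLOSUM62). The named motifs were searched in windows of 250 and 1000 bases. Python 3.11.15, pandas 2.3.3 and NumPy 2.4.6 were used.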

Additional observations from a re-analysis of the deposited data

How the results depend on the processing

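A pseudocount changes the size of a ratio and never its sign, and a minimum mean of 1 FPKM removed none of the 4 genes. With 5 FPKM added their median log2 ratio was -0.77 instead of -1.40. Scaling wild type to the median gene (a factor of 1.05) left all 4 below 0, from -2.14 for CGA1 to -0.47 for GNC. The calls of GLK1, GLK2 and CGA1 held under both other thresholds. GNC (q = 0.0358 in the authors' deposited table) was lost at a q-value of 0.01 and with the Benjamini-Hochberg adjustment (0.0512). Other GATA genes called higher numbered 3 instead of 6 at a q-value of 0.01, and root markers 0 instead of 1. The median ratio of the other GATA genes, and that of the 5 B-class relatives, turned to -0.021 under median scaling. That scaling lowers the ratio of every gene detected in wild type. With FPKM + 1 the share of GLK1 in its pair was 19.1% in wild type and 31.8% in phyA-1, and that of CGA1 27.7% and 10.7%, because the added 1 FPKM weighs heavily on CGA1 in phyA-1. Of the genes nearest to the regulators, 7 of 8 were the same with 0.1 FPKM added. No paired analysis was possible because the table pools the libraries of each genotype, and leaving out single libraries was not run for the same reason. Depth per library is unknown and the levels are pooled, so the precision of the low CGA1 level in phyA-1 is unknown. The deposited p-value concerns the difference between genotypes and does not give that precision.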
